A study of Homo sapiens with 4 samples.

Results

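Transcripts of secreted proteins of innate defence and the acute-phase response were followed in H1792, a human lung cancer cell line, treated with the degrader ACBI1 or with DMSO. They come from the siderophore-binding protein gene LCN2, the complement genes C3, CFB, C1R, C1S and SERPING1, and the acute-phase genes SAA1, SAA2 and CP, which are 9 of the 61228 genes listed in each library. They were picked by symbol, with results of the comparison of ACBI1 with DMSO already known, so their levels and changes are given as a description with no test. Each group held 2 libraries, 4 in all, and the cells of both groups were labelled wild type. The treatment was 96 h of DMSO or of ACBI1 at a dose written as 1 mM in the labels. ACBI1 is a PROTAC, a molecule that brings a target protein to the VHL ubiquitin ligase for degradation, and it is aimed at the SWI/SNF chromatin remodellers through their ATPase subunits SMARCA4 and SMARCA2 and through PBRM1, which belongs to one form of them. The series is titled for SMARCA4-mutant lung cancer, immunity against tumours and the STING pathway. All 4 libraries come from 1 line, and nothing in the labels says that replicates were separate cultures, so that p-values measure the spread between these libraries, which may be technical.

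Complement is a cascade of plasma proteins. C1R and C1S are the serine proteases that start its classical pathway, SERPING1 encodes the C1 inhibitor that blocks them, CFB gives the protease of the alternative pathway, and C3 is the component on which all routes converge. LCN2 (lipocalin 2) binds bacterial siderophores and so withholds iron from microbes. SAA1 and SAA2 encode serum amyloid A, and CP encodes ceruloplasmin, a copper-carrying ferroxidase. The liver makes most of these proteins in the acute phase, and airway epithelium also secretes several of them when it meets inflammatory cytokines.

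SAA1 and SAA2 are near-identical copies on chromosome 11, and their coding sequences are shown because they bear on how far the counts of the pair can be told apart. Over 366 coding bases of GENCODE release 29, stop codon left out, they differed at 11 positions (96.99% identity), and bases 44 to 229 formed an identical run of 186 bases. The 60 bases with the most differences, 229 to 288 of each coding sequence, hold 8 of the 11, in capitals here.
SAA1: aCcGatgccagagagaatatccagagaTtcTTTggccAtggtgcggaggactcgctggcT
SAA2: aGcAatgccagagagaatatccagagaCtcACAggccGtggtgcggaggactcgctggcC
Reads from the identical run fit both genes, and reads with several alignments, 3.52% to 5.44% of the reads listed in a library, were given to no gene.

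RefSeq's promoter table (GRCh38.p14) held entries for 3 of the members, LCN2, CFB and C1R, the last with 2 starts. The 250 bases before each start were searched on both strands for the NF-kB consensus, for the C/EBP motif TTNNGNAA, the STAT motif TTCNNNGAA, the AP-1 motif TGANTCA and the interferon-stimulated response element, since factors of these families are known to act on acute-phase genes. The 176 bases before the LCN2 start that lie outside the exons of GENCODE release 29, at chr9:128149265-128149440 on the plus strand, are shown with the matches in capitals, from 5′ to 3′ for NF-kB, C/EBP and AP-1.
LCN2: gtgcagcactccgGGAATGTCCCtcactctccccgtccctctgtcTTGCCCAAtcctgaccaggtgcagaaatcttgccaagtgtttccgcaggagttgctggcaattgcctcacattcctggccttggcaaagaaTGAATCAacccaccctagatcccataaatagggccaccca
The 29 bases of CFB from its NF-kB match to its STAT match lie at chr6:31945983-31946011 on the plus strand. All 250 bases of the CFB window are exonic in CFB itself in GENCODE release 29, as is 1 of the C1R windows in C1R.
CFB: GGGGCCCTCCcgcttggatgTTCCGGGAA
CFB also held a match to the interferon element, 140 to 131 bases before its start. The C1R windows held C/EBP matches, and the window of the downstream start also held a STAT match. Among all 35116 such windows, 9.96% held an NF-kB match, 33.2% a C/EBP match, 6.57% a STAT match, 6.57% an AP-1 match and 3.02% a match to the interferon element. No 2 matches overlapped in the windows of LCN2, CFB and C1R. A match describes letters and is not evidence of binding.

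Counts given to genes ranged from 64281850 to 86010100 per library. SMARCA4 was at 250 ± 47.8 counts per 1000000 counts (CPM, scaled by TMM) with DMSO and at 406 ± 11.3 CPM with ACBI1 (SD, n = 2), which edgeR did not call (adjusted p 0.0583). It was called higher by DESeq2 (adjusted p 0.0150) and without DMSO replicate 1 (adjusted p 0.0186). Neither SMARCA2 (edgeR adjusted p 0.163) nor PBRM1 (edgeR adjusted p 0.734) was called, though edgeR with the block called SMARCA2 lower (adjusted p 0.0394). Of the 6 epithelial markers, 5 were tested and 4 of these, KRT7, KRT8, KRT18 and KRT19, were lower with ACBI1, while CDH1 had 4 to 16 counts in a library. The fifth that was tested, EPCAM, stood at 5.38 and 2.78 CPM with DMSO and at 15.6 and 4.84 CPM with ACBI1 and was not called (log2 change 1.32, edgeR adjusted p 0.179). The summed level of the epithelial list was 982 and 1035 CPM with DMSO and 323 and 202 CPM with ACBI1. Without ACBI1 replicate 1, KRT18 was not called (edgeR adjusted p 0.0742) and KRT7 had a log2 change of -3.48 in place of -2.50. Fibroblast and endothelial markers summed to 44.2 and 145 CPM with DMSO and to 9.40 and 13.2 CPM with ACBI1, with 5 of 6 tested lower. Among these, DCN, PECAM1 and VWF passed the filter on low counts only through DMSO. Over all genes tested, 10.6% were called lower and 6.75% higher. The part of these marker shifts in the results on the secreted proteins was not tested. Markers of leukocytes, which include cells that store LCN2 or make complement, were near 0, as PTPRC had at most 2 counts and FCGR3B had 0 in each library, and the list of 9 summed to between 0.491 and 1.13 CPM. Of 8 hepatocyte markers, APOA2, APOB, TTR and F9 had 0 counts in all 4 libraries. In bulk RNA, fewer cells with a transcript and less of it per cell cannot be told apart.

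In the fit over all 19159 genes that passed the filter on low counts, 8 of the 9 members could be tested and CP could not. Of the 8, 7 were lower with ACBI1 at an edgeR adjusted p under 0.05, and SERPING1 was not called. Of all genes tested, 10.6% were called lower, 6.75% higher and 17.4% either way. In the same 7 both ACBI1 libraries lay below both DMSO libraries, which was so for 32.2% of all genes tested, with 31.1% in the opposite order. The median fitted log2 change of the 8 was -6.28, or -5.86 with CFB at its bound given below, beside 0.01 over all genes tested. LCN2, CFB, SAA1 and SAA2, at 0 to 12 counts in an ACBI1 library, passed the filter only through DMSO. Because of this, and because this comparison chose the members, nothing is read from these counts or from the median. The plot of levels by library shows the 7 with a wide gap between the groups, and SERPING1 and CP with none.

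**Figure D1:**
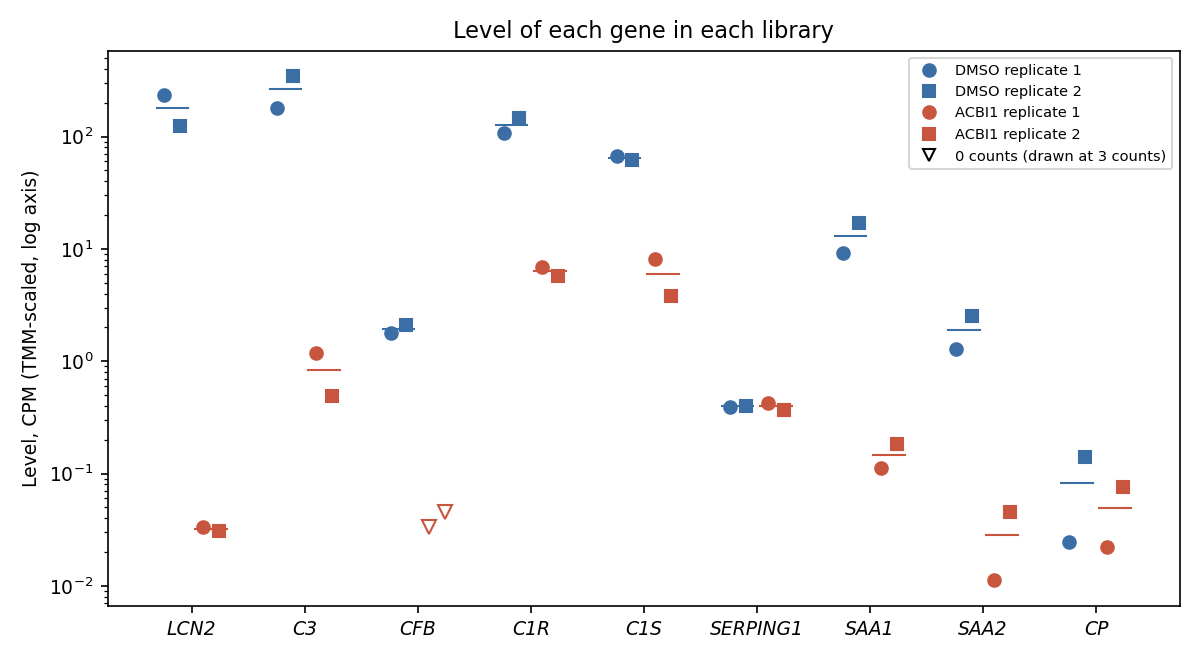
Level of each of the 9 genes in CPM on a log axis, with 1 point per library (circles replicate 1, squares replicate 2) and lines at the group means; open triangles mark 0 counts, drawn at the level of 3 counts. DMSO (blue) and ACBI1 (red) separate for LCN2, C3, CFB, C1R, C1S, SAA1 and SAA2 and overlap for SERPING1 and CP.

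LCN2 (chr9:128149453-128153453, plus strand, GRCh38.p14) stood at 235 and 125 CPM in DMSO replicates 1 and 2 and at 0.0335 and 0.0305 CPM in ACBI1 replicates 1 and 2. These levels rested on 19132 and 8986 counts against 3 and 2. With DMSO its level was at percentile 94.4 of the genes tested, and with ACBI1 at percentile 1.24. The DMSO mean of 180 ± 77.8 CPM exceeded the ACBI1 mean of 0.0320 ± 0.00213 CPM (SD, n = 2), and summed counts per library size gave a ratio of 5687 (95% exact counting interval 2436 to 17515). The fitted log2 change was -12.38 (SE 0.55, which may be too small at 3 and 2 counts). Of 19159 fitted changes, only 3 were more negative. At so few counts the fitted value depends in part on the prior count. LCN2 was also picked with this comparison known, so its rank is not read as a result.

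C3 (chr19:6677704-6720650, minus strand) stood at 179 and 346 CPM with DMSO and at 1.18 and 0.488 CPM with ACBI1. It was thus higher in DMSO replicate 2, by 1.93 times, whereas LCN2 was higher in DMSO replicate 1, by 1.88 times. From 262 ± 118 to 0.836 ± 0.492 CPM (SD, n = 2), the fitted log2 change was -8.26 (SE 0.59), and it was -9.06 without ACBI1 replicate 1. CFB (chr6:31946095-31952084, plus strand), in the class III region of the major histocompatibility complex, had 144 and 150 counts with DMSO (1.77 and 2.09 CPM) and 0 in both ACBI1 libraries, which allows up to 0.0335 and 0.0458 CPM. Set against the same floor of 3 counts per library, CFB was at least 49.5-fold lower with ACBI1. Its fitted log2 change of -10.22 depends on the prior count and is no bound. In GENCODE release 29 exons of C2 or of a C2-CFB readthrough gene overlap 45.5% of the exonic length of CFB on the same strand, and the readthrough row had 0 counts in each library, so the CFB level may lack reads that fit both genes.

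The proteases of the classical pathway kept part of their transcripts. C1R (chr12:7080219-7092445, minus strand) stood at 107 and 145 CPM with DMSO and at 6.95 and 5.75 CPM with ACBI1. The fitted log2 change of C1R was -4.31 (SE 0.24), from 126 ± 26.6 to 6.35 ± 0.847 CPM (SD, n = 2). C1S (chr12:7060718-7071032, plus strand), 9.19 kb away, stood at 67.3 and 62.1 CPM with DMSO and at 8.09 and 3.77 CPM with ACBI1. Its fitted log2 change was -3.44 (SE 0.37), or -4.09 without ACBI1 replicate 1, the library with the higher level of the pair. SERPING1 (chr11:57597685-57614848, plus strand), the inhibitor of both proteases, was rare in every library, with 32 and 29 counts with DMSO and 38 and 24 with ACBI1. These gave 0.393, 0.403, 0.424 and 0.366 CPM in that order, so the ACBI1 values lay on either side of the DMSO values. The ratio of summed counts per library size, DMSO over ACBI1, was 0.995 (95% exact counting interval 0.687 to 1.44). The fitted log2 change was -0.01 (SE 0.41), or 0.08 under scaling by library size only.

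Of the acute-phase genes, SAA1 (chr11:18266264-18269967, plus strand) stood at 9.12 and 17.1 CPM with DMSO and at 0.112 and 0.183 CPM with ACBI1, on 743 and 1229 counts against 10 and 12. Its fitted log2 change was -6.49 (SE 0.51), or -5.97 without DMSO replicate 2. SAA2 (chr11:18238236-18248668, minus strand), 17.6 kb away, stood at 1.28 and 2.50 CPM with DMSO and at 0.0112 and 0.0458 CPM with ACBI1. SAA2 had 4 counts with ACBI1 against 284 with DMSO, a ratio per library size of 71.8 (95% exact counting interval 27.7 to 265). A log2 change of -6.08 (SE 0.73) was fitted, which became -7.22 when ACBI1 replicate 2 was left out and -5.31 when ACBI1 replicate 1 was. With the counts of the pair summed, the log2 change was -6.44 (SE 0.52), and reads that fit both genes are missing from this sum as well. CP (chr3:149162414-149221829, minus strand) had 2 and 10 counts with DMSO and 2 and 5 with ACBI1, too few to test, and the 95% exact counting interval of its ratio, 1.73, ran from 0.629 to 5.20. Both genes of the SAA pair and CP had their higher level in replicate 2 of each group. A difference in CP was not detectable at this depth.

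**Figure D2:**
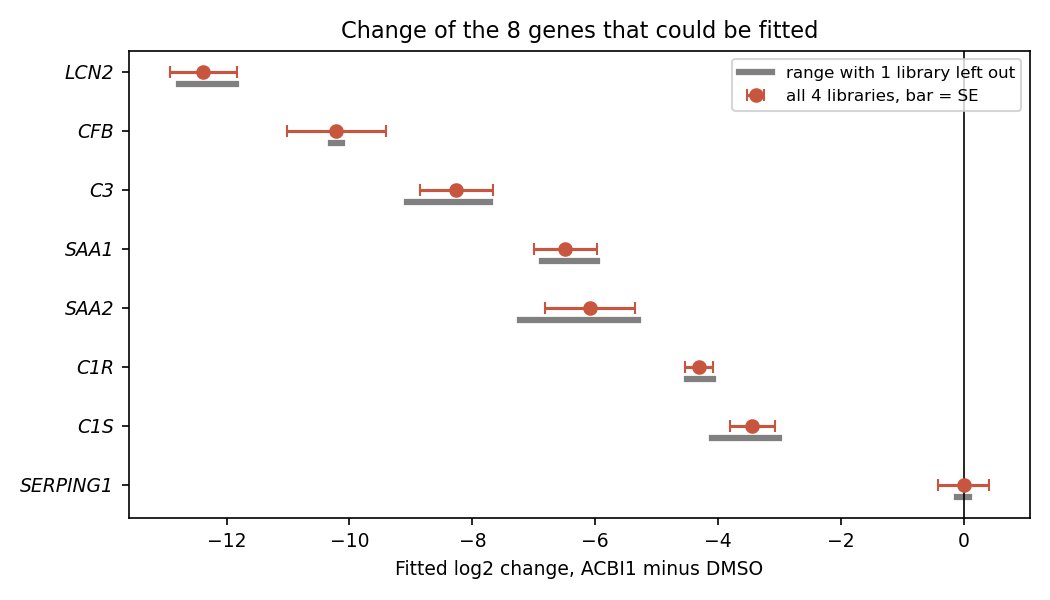
Fitted log2 change, ACBI1 minus DMSO, of the 8 genes that could be fitted, with the SE as a bar and the range over the fits with 1 library left out as a grey line. LCN2 at -12.38 and SERPING1 at -0.01 are the ends of the range. The value of CFB, at 0 counts with ACBI1, depends on the prior count in every fit, so its place between LCN2 and C3 is not read.

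Levels can be compared between genes only per length, and for this CPM were divided by the length in kb of the principal transcript in GENCODE release 29. With DMSO the order of these levels was LCN2 (212 ± 91.8 CPM per kb), C3 (49.8 ± 22.5), C1R (47.5 ± 10.0), C1S (21.0 ± 1.20), SAA1 (19.4 ± 8.34), SAA2 (2.75 ± 1.26), CFB (0.673 ± 0.0782), SERPING1 (0.178 ± 0.00325) and CP (0.0175 ± 0.0173), each with SD and n = 2. C3 and C1R did not differ beyond their spread, nor did C1S and SAA1, since the 2 values of one lay between those of the other. SAA1, SAA2 and CFB may lack reads that also fit another gene, so their per-length levels may be too low in both groups. The same holds for C1R, with 11.4% of its exonic length overlapped by C1RL, and for C1S, with 3.54% overlapped by EMG1. Other genes, the SAA2-SAA4 readthrough among them, overlap 14.3% of the exonic length of SAA2. With ACBI1 the highest per-length levels were those of C1R (2.39 ± 0.318 CPM per kb) and C1S (1.93 ± 0.993), which overlapped. SAA1 followed at 0.218 ± 0.0747 CPM per kb and SERPING1 at 0.177 ± 0.0185, and LCN2, at the top with DMSO, stood at 0.0378 ± 0.00251 CPM per kb (SD, n = 2).

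Within the 2 gene pairs the balance of the copies was followed in each library. SAA1 made up 87.7% and 87.2% of the SAA1 and SAA2 counts in DMSO replicates 1 and 2. With ACBI1 it made up 90.9% (95% exact interval 58.7% to 99.8%) and 80.0% (51.9% to 95.7%), on 11 and 15 counts of the pair, intervals that hold both DMSO values. C1R made up 61.5% and 70.0% of the C1R and C1S counts with DMSO and 46.2% and 60.4% with ACBI1. Both ACBI1 shares of C1R lay below both DMSO shares. The nearest shares of the groups, 60.4% with ACBI1 and 61.5% with DMSO, lay closer together than the 2 libraries of either group. Intervals cover counting error only, since copies made by PCR cannot be told from separate molecules.

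**Figure D3:**
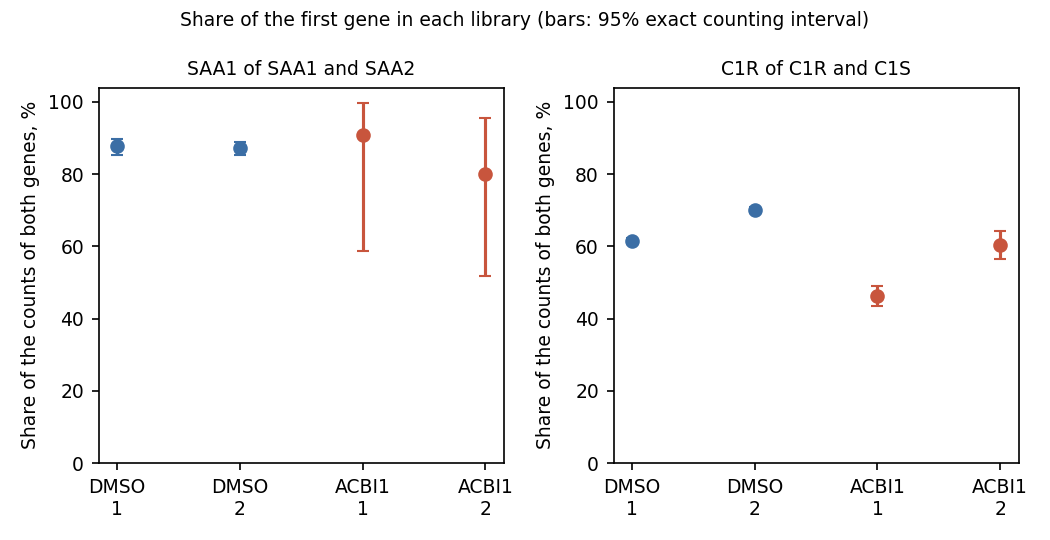
Share of SAA1 in the counts of SAA1 and SAA2 (left) and of C1R in the counts of C1R and C1S (right) in each library, in percent, with 95% exact counting intervals as bars. SAA1 shares lie between 80.0% and 90.9%, and C1R shares run from 46.2% in ACBI1 replicate 1 to 70.0% in DMSO replicate 2.

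Other complement genes went both ways. Of 42 on the list, 18 could be tested, of which 4 were lower, 3 were higher and 11 were not called, beside 10.6% of all genes called lower and 6.75% called higher. The median log2 change was -0.93. CFD, the protease that cleaves factor B, rose to 5.45 ± 0.534 CPM with ACBI1 from 1.06 ± 0.194 CPM with DMSO (SD, n = 2), with a log2 change of 2.36 (edgeR adjusted p 0.00864). The terminal component gene C5 had a log2 change of 1.02 (edgeR adjusted p 0.0355), and C1QBP, which encodes a mitochondrial protein that also binds C1q, one of 0.85 (edgeR adjusted p 0.0253). CD55, a membrane protein that speeds the decay of convertases, had a log2 change of -1.11 (edgeR adjusted p 0.0317), and C1RL, a relative of C1R, one of -1.33 (edgeR adjusted p 0.0349). The other 2 genes called lower, named after their values were seen, were rarer. CFI, the protease that inactivates C3b, had 123 counts with DMSO and 7 with ACBI1 (log2 change -4.16, edgeR adjusted p 0.0154), and passed the filter only through DMSO. The C5a receptor gene C5AR1 had a log2 change of -2.62 (edgeR adjusted p 0.0298). The membrane regulators CD46 (log2 change -0.76, edgeR adjusted p 0.0697) and CD59 (0.29, edgeR adjusted p 0.554) were not called, nor was C2, the gene next to CFB (-1.70, edgeR adjusted p 0.0869). C4A and C4B are near-identical and were not called either. Without ACBI1 replicate 1 or without ACBI1 replicate 2 the number called in this list was 3. C5 and C1QBP lost their calls when ACBI1 replicate 1, ACBI1 replicate 2 or DMSO replicate 2 was left out, CD55 when either ACBI1 replicate was, and C1RL when ACBI1 replicate 2 was, with edgeR adjusted p from 0.0569 to 0.193. C5AR1 lost its call without any one library but DMSO replicate 2, and had a log2 change of -1.87 without DMSO replicate 1, while CFI had one of -3.39 without DMSO replicate 2 and kept its call. C2 had a log2 change of -2.68 without ACBI1 replicate 1, and CD46 was called lower by DESeq2 (adjusted p 0.0282).

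Among 29 other acute-phase genes, 8 had 0 counts in all 4 libraries and 7 could be tested. The 4 called genes, named after their values were seen since their means were under 1 CPM, were all lower. Over all genes tested, 10.6% were called lower and 6.75% higher. Each of the 4 had fewer than 10 counts in each ACBI1 library and so passed the filter only through DMSO. Neither their direction nor the median log2 change of the 7, -2.19, is therefore read as a result. SERPINA1, which encodes the elastase inhibitor alpha-1 antitrypsin, had 261 counts with DMSO and 5 with ACBI1 (edgeR adjusted p 0.00461). SERPIND1, which encodes a thrombin inhibitor, had 245 counts with DMSO and 0 with ACBI1, at least 41.3-fold lower against 3 counts per library (edgeR adjusted p 0.00456). SERPINA5, an inhibitor of coagulation proteases, had 73 against 0 counts, at least 12.3-fold lower (edgeR adjusted p 0.00975), and AGT, the angiotensin precursor, had a log2 change of -2.19 (edgeR adjusted p 0.0295). PTX3, a pentraxin that binds microbes and C1q, stood at 125 and 49.6 CPM with DMSO and at 47.9 and 7.23 CPM with ACBI1 and was not called (log2 change -1.66, edgeR adjusted p 0.225), nor was the iron carrier gene TF (edgeR adjusted p 0.584). PTX3 was called lower without ACBI1 replicate 1 (log2 change -3.58) and without DMSO replicate 2 (-2.18), and had log2 changes of -0.84 and -0.87 without DMSO replicate 1 and ACBI1 replicate 2. AGT kept its call only without DMSO replicate 1 (edgeR adjusted p 0.0995 to 0.164 in the other fits without a library).

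Of 28 further secreted defence genes of epithelia, only 4 passed the filter, and 3 of these were lower. The shares over all genes tested were 10.6% called lower and 6.75% called higher. DMBT1, PIGR and CHI3L1, the 3 called, had at most 3 counts in an ACBI1 library and passed the filter only through DMSO. Neither their direction nor the median of this list is therefore read as a result. DMBT1, a scavenger receptor protein of mucosal fluids, stood at 14.9 and 30.8 CPM with DMSO and at 0.0335 and 0 CPM with ACBI1, a ratio of summed counts per library size of 1157 (95% exact counting interval 396 to 5612; edgeR adjusted p 0.00231). PIGR, which carries polymeric immunoglobulins across epithelium, stood at 13.6 and 5.44 CPM with DMSO and at 0 and 0.0305 CPM with ACBI1, a ratio of 757 (interval 209 to 6256; edgeR adjusted p 0.00424). CHI3L1, a chitinase-like protein named after its values were seen, had 71 counts with DMSO and 0 with ACBI1, at least 12.0-fold lower (edgeR adjusted p 0.0123). Fitted without ACBI1 replicate 1, DMBT1 had a log2 change of -13.70 and PIGR one of -8.20, against -9.36 and -12.59 without ACBI1 replicate 2, since each gene had counts in only 1 ACBI1 library. MUC1, a membrane mucin, was not called (log2 change -1.10, edgeR adjusted p 0.291), and its log2 change was -1.75, and called, without DMSO replicate 1 and 0.11 without DMSO replicate 2. The median log2 change of the 4 was -8.76, or -6.46 with CHI3L1 at its bound. Without DMSO replicate 1, more genes passed the filter and 5 were called, each lower.

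LCN2 and CP both touch iron, and genes of iron and siderophore handling were followed beside them. Of 25 genes, 20 were tested, 5 were lower and 3 higher, beside 10.6% of all genes tested called lower and 6.75% called higher. The median log2 change was -0.20. The ferritin heavy chain gene FTH1 fell to 1646 ± 410 CPM with ACBI1 from 5322 ± 923 CPM with DMSO (SD, n = 2), with a log2 change of -1.69 (edgeR adjusted p 0.0117), although FTH1 has many pseudogene copies that can take its reads. The ferritin light chain gene FTL stood at 1814 ± 86.2 CPM with DMSO and at 2861 ± 386 CPM with ACBI1 (SD, n = 2). FTL was not called (log2 change 0.66, edgeR adjusted p 0.0694). ACO1, which encodes iron regulatory protein 1, had a log2 change of -1.21 (edgeR adjusted p 0.00768), and BDH2, linked to the mammalian siderophore, one of -1.27 (edgeR adjusted p 0.0283). NCOA4, the receptor for ferritin breakdown, stood at 132 ± 14.3 CPM with DMSO and at 65.8 ± 11.4 CPM with ACBI1 (SD, n = 2; edgeR adjusted p 0.0215). In the other direction, BMP6, a ligand that induces hepcidin in the liver, rose to 61.5 ± 8.17 CPM with ACBI1 from 13.1 ± 0.119 CPM with DMSO (SD, n = 2), with a log2 change of 2.23 (edgeR adjusted p 0.00231). HMOX1, which frees iron from heme, had a log2 change of 2.21 (edgeR adjusted p 0.0145) and the transferrin receptor gene TFR2 one of 1.41 (edgeR adjusted p 0.0122). The LCN2 receptor gene SLC22A17 was rare, at 0.0559 to 0.334 CPM, and was not called (edgeR adjusted p 0.0966). Without ACBI1 replicate 1 the count of calls was 5, with NCOA4 (edgeR adjusted p 0.115) and BDH2 (0.0932) among those lost, and BDH2 was also lost without ACBI1 replicate 2 (0.114).

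Receptors and transcription factors that are known to act upstream of acute-phase genes were followed as well. Of 30 listed, 28 were tested, 11 were lower and none was higher in edgeR's test at an adjusted p, while 2 were higher at an unadjusted p under 0.05, DESeq2 and scaling by library size only each called 1 higher, and the fit without DMSO replicate 1 called 2 higher. The median log2 change was -0.55, and the shares called over all genes tested were 10.6% lower and 6.75% higher. ELF3, an epithelial ETS factor, stood at 13.0 and 23.7 CPM with DMSO and at 0.201 and 0.244 CPM with ACBI1, a log2 change of -6.37 (edgeR adjusted p 0.00193). NFKBIZ, the nuclear cofactor of NF-kB that is known to act on the LCN2 promoter, fell to 95.9 ± 18.3 CPM with ACBI1 from 437 ± 52.4 CPM with DMSO (SD, n = 2), with a log2 change of -2.19 (edgeR adjusted p 0.00385). The interleukin-1 receptor gene IL1R1 had a log2 change of -2.14 (edgeR adjusted p 0.0137), or -1.52 without DMSO replicate 2, and the interleukin-6 receptor gene IL6R one of -2.06 (edgeR adjusted p 0.0100). The C/EBP factor genes CEBPD (log2 change -1.78, edgeR adjusted p 0.0239) and CEBPB (-0.87, edgeR adjusted p 0.0290) were lower too. RELA (0.50, edgeR adjusted p 0.111), NFKB1 (-0.49, edgeR adjusted p 0.208) and STAT3 (-0.19, edgeR adjusted p 0.729) were not called. Without ACBI1 replicate 1 the number called was 4, each lower, with CEBPD (edgeR adjusted p 0.0550) and CEBPB (0.113) among those lost. CEBPB was also lost without DMSO replicate 2 (0.0651) and ACBI1 replicate 2 (0.126).

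**Figure D4:**
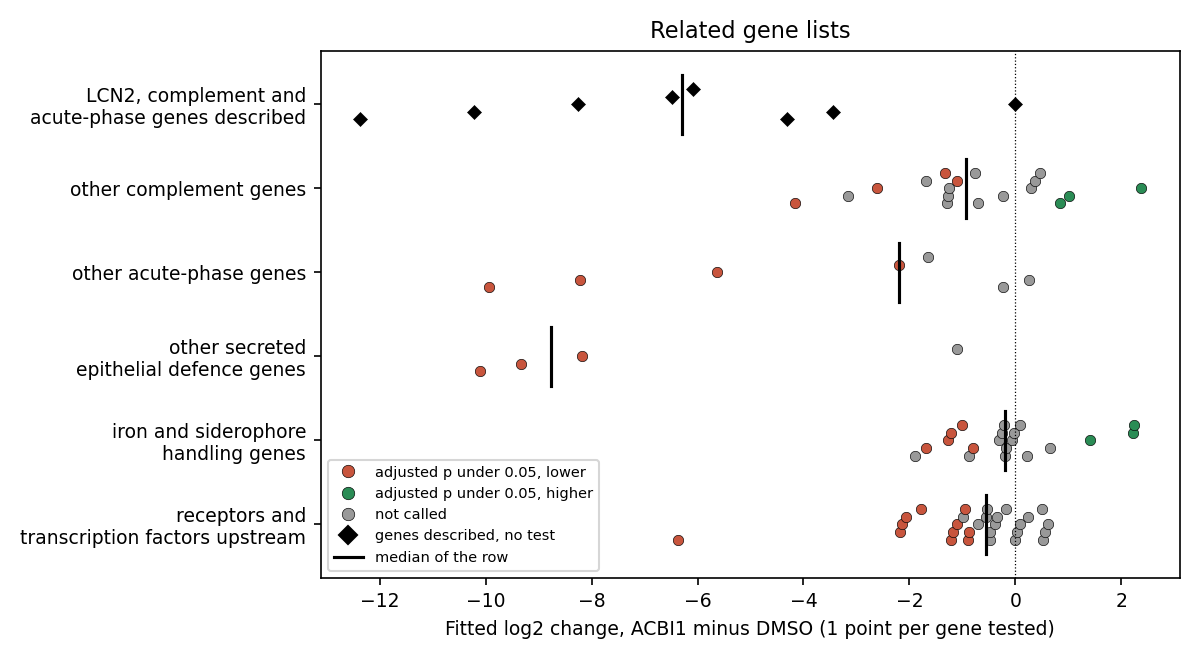
Fitted log2 change, ACBI1 minus DMSO, of each gene tested in 5 related lists (circles; red called lower, green called higher, grey not called) and of the 8 genes described (black diamonds), with the median of each row as a black line. Medians run from -8.76 for other secreted defence genes, on 4 genes of which 3 passed the filter only through DMSO, to -0.20 for iron handling genes.

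The genes beside the 7 low members on the chromosome were examined, by a rule chosen after the data were seen, as the 2 nearest tested protein-coding genes on each side of 5 loci in RefSeq (GRCh38.p14). Because these members were already known to be low, that they lay below their neighbours is a result of the choice, and only the neighbours' own values are read here. Of these 20 neighbours, edgeR called 4, each lower, beside 10.6% of all genes tested called lower and 6.75% called higher. DESeq2, and edgeR under other settings, called other neighbours in both directions. With the replicate number as a block, edgeR also called SLC25A25, TNFSF9, ZBTB12 and C2 lower. It then called PTGES2, TRIP10, EMG1, LPCAT3, SAAL1 and GTF2H1 higher. The 20 log2 changes lay between -1.70 and 0.61, with a median of -0.21. Beside LCN2, BBLN, 6.81 kb away, had a log2 change of -0.98 (edgeR adjusted p 0.0166), while PTGES2 (0.61, edgeR adjusted p 0.104), CIZ1 (0.04, edgeR adjusted p 0.902) and SLC25A25 (-0.50, edgeR adjusted p 0.109) were not called. GPR108, 9.26 kb from C3, had a log2 change of -0.81 (edgeR adjusted p 0.0317). Beyond C1R lay C1RL, given above, and CLSTN3, with a log2 change of -1.13 (edgeR adjusted p 0.0179). None of the 4 neighbours of CFB or of the SAA pair was called in edgeR's main fit, without a block. DESeq2 called C2 (log2 change -1.71, adjusted p 0.0483) and TNFSF9 beside C3 (-0.84, adjusted p 0.0334) lower, and SAAL1 (0.61, adjusted p 0.0262) and TRIP10 beside C3 (0.50, adjusted p 0.0485) higher. BBLN lost its call without ACBI1 replicate 2 (edgeR adjusted p 0.0834), CLSTN3 without either ACBI1 replicate (0.0787 and 0.0700) and GPR108 without either ACBI1 replicate or DMSO replicate 2 (0.0525 to 0.153).

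**Figure D5:**
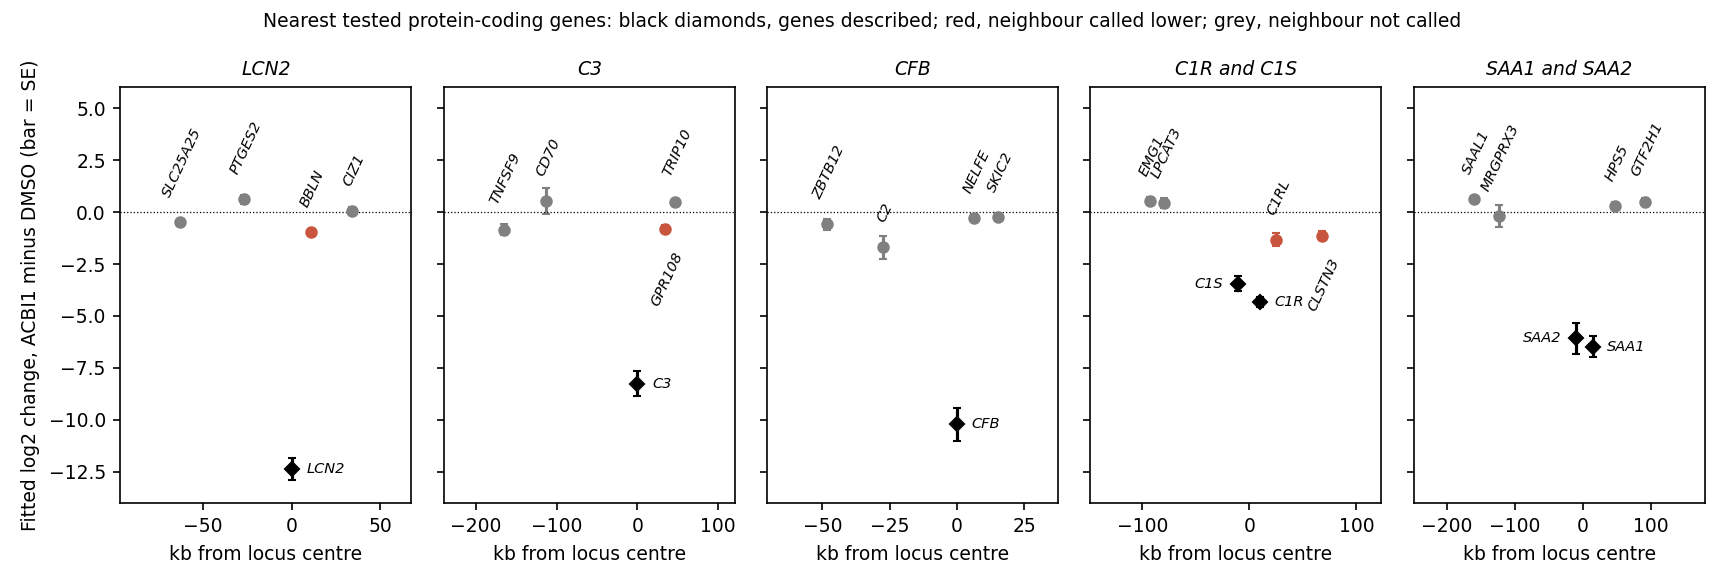
Fitted log2 change, ACBI1 minus DMSO, with its SE as a bar, against the distance in kb between the middle of a gene and the middle of the locus, for the genes described (black diamonds) and their 2 nearest tested protein-coding neighbours on each side (red called lower, grey not called). The neighbours lie between -1.70 and 0.61; the genes described were chosen as low, so their place below is no finding, and the value of CFB, at 0 counts with ACBI1, depends on the prior count.

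The genes most like LCN2, C3 and C1S were sought over the 4 libraries by the root mean square difference of log2 CPM, each gene centred on its own mean, among 11155 genes whose mean reached 5 CPM. For LCN2 these were CSF2 (difference 0.21 on the log2 scale), CSF3 (0.65) and IL1B (0.88). With ACBI1 they had 9, 1 and 6 counts over both libraries, beside 5 for LCN2, and passed the filter only through DMSO. The prior count of 0.5 per library therefore weighs on these differences, and their order is not read. CSF2 stood at 406 and 260 CPM with DMSO and at 0.0670 and 0.0458 CPM with ACBI1, so that it shared with LCN2 the higher level in DMSO replicate 1. For C3 they were RIPOR3 (0.51), TNFAIP6 (0.55) and IL7R (0.56). RIPOR3 stood at 70.9 and 192 CPM with DMSO and at 0.603 and 0.503 CPM with ACBI1, higher in DMSO replicate 2 like C3. For C1S they were COL16A1 (0.14), TNFAIP2 (0.17) and LPXN (0.18). Among the members themselves C1R and C1S were the closest pair of the 5 whose mean reached 5 CPM (0.52), and LCN2 and C1S the farthest (4.31). With 4 libraries in 2 groups such likeness rests mainly on the size of the difference between the groups.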

How the data were processed

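RNA-seq read counts per gene symbol were deposited by the authors as whole numbers, not normalized. The submitters' processing notes name TopHat2 2.1.1, HTSeq 0.11.0 and hg38; roles, annotation and strand setting are not given in the sources used here, so antisense and overlapping genes can share or lose reads. Per the labels' protocols, libraries were made from total RNA with an NEBNext Ultra II DNA kit. The 5 lines naming no gene (13.9% to 15.4% of reads listed) were left out. Genes were filtered with edgeR's filterByExpr (minimum count 10, total 15), scaled by TMM and tested two-sided for treatment by quasi-likelihood (glmQLFit, glmQLFTest of edgeR 4.0.16, R 4.3.3); calls had a Benjamini-Hochberg adjusted p under 0.05. The common biological coefficient of variation was 0.244. Each SE was worked back from the log2 change and the F statistic of its test, and may be too small for genes with few counts. The smallest p that an exact permutation test allows for 2 against 2 libraries is 0.333, so single values were not tested. Replicates differed by more than sampling noise (chi-square per degree of freedom 101 for DMSO and 66.3 for ACBI1). The script was tested on simulated data. The members, 5 lists and the rule for named genes (in each list, up to 4 called rises and 4 called falls with a mean of at least 1 CPM) were chosen with earlier results of these data known. Other list genes, and the neighbours, were named after their values were seen. Alternatives were DESeq2 1.42.0, other scalings and filters, the replicate number as a block, and each library left out.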

Additional observations from a re-analysis of the deposited data

How the results depend on the processing

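The 7 members that were lower kept that direction in all 10 alternatives where they could be fitted. With all 4 libraries, 7 were called lower in each alternative except under a filter of a mean of at least 5 CPM. That filter kept 5 members and called 5. The members were picked with this comparison known, and LCN2, CFB, SAA1 and SAA2 passed the main filter only through DMSO. Neither the direction nor the calls are therefore read as support. Over the 4 fits without a library, in which the lone library of a group is assumed to vary like the others, LCN2 ranged from -12.77 to -11.84, C1R from -4.51 to -4.08 and SERPING1 from -0.11 to 0.08 on the log2 scale. Over all genes, 3331 were called (1294 higher, 2037 lower). The number was 5518 with every gene that had a count, 7909 with a replicate block, and 1379 to 4292 with 1 library left out; scaling by library size only gave 1755 higher and 1866 lower. Calls among other complement genes (7) became 13 with every gene that had a count, 4 with a mean of at least 5 CPM, 13 with the replicate block and 3 to 9 with 1 library left out. Other acute-phase calls (4) became 0 of 1 gene tested with a mean of at least 5 CPM, with no acute-phase gene at an unadjusted p under 0.05 there, while DESeq2 without that filter called 4, and 3 to 4 without a library. Other secreted defence calls (3) became 6 with every gene that had a count, 1 under the filter at 5 CPM and 3 to 5 with 1 library left out. Iron calls (8) became 5 to 9 with 1 library left out. Upstream calls (11) became 21 with the replicate block (17 lower, 4 higher) and 4 to 15 with 1 library left out. Filters change which genes are tested; the cause of the other shifts was not tested. Same-numbered libraries deviated together (correlation 0.597 across 11160 genes), but 2 pairs whose labels name no shared batch do not establish pairing.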
